A study of Rattus norvegicus with 21 samples.

Results

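The response of control heart muscle cells to phenylephrine (PE) was measured in 4 of the 21 libraries of the series, chosen by their sample labels as the siNeg libraries with PE and the siNeg libraries without it (2 libraries each). The cells were NRVMs, ventricular myocytes taken from newborn rats and kept in primary culture, and both groups had received siNeg, a negative control small interfering RNA, for 12 h. PE was then given at 100 µM for 36 h, or left out. The unstimulated libraries carry the label 0 hour, and the field for treatment names PE in every RNA library, so the titles and the hours were used to tell the groups apart. The protocol describes culture with or without PE for the same 36 h, and the labels do not say when the 0 hour cells were harvested. If that was before the PE cells, PE and time in culture cannot be told apart, here and in the siKlf2 and AdGFP cells, and "rose" and "fell" below mean higher and lower in the libraries with PE. For comparison, 4 libraries of cells given an siRNA against Klf2 (siKlf2), with and without PE, and 6 libraries of cells infected for 24 h with a virus carrying green fluorescent protein (AdGFP), with and without PE, are given beside them. In the AdGFP cells PE came 12 h before the virus.

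PE is an agonist of α1-adrenergic receptors, which act through the G protein Gq on phospholipase C, protein kinase C and intracellular calcium. In cultured cardiomyocytes this signal is the classical trigger of hypertrophic growth: cells enlarge, protein synthesis increases, and genes of the fetal heart, such as those of the natriuretic peptides and of skeletal α-actin, are switched back on. Genes are listed here by Ensembl ID only, and 0 of the 30560 IDs could be paired with a symbol. The known hypertrophy genes, the markers of cardiomyocytes and of other heart cells, and Klf2 itself were therefore not identified by name here. Any of them may be among the IDs tested or described below. The labelled cell type rests on the labels. In RNA from a whole culture, fewer cells of a type and less RNA per cell cannot be told apart. Nothing in the labels tells if the replicates are separate cultures, so the p-values cover only the variation among these libraries, and that variation may be technical.

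Total counts were 224082309 and 203526143 in the siNeg libraries with PE, against 199069070 and 181101876 in the siNeg libraries without PE. A count is a sequenced read end or fragment assigned to a gene. Between 17656 and 17837 genes had at least 10 counts in each of the 4 libraries. The 10 most abundant genes held 11.9% and 13.1% of all counts with PE, against 14.4% and 13.9% without PE. The most abundant gene alone held 5.11% and 5.58% with PE, against 6.84% and 6.73% without PE. The gap thus lay largely in that gene. Replicates correlated at 0.9951 with PE and at 0.9957 without PE in log CPM across genes. Levels are in CPM, counts scaled to a common library total that has been adjusted by the TMM factor, and are not divided by gene length, so they rank genes only roughly by transcript number.

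A large part of the transcriptome differed, mostly by small amounts, between siNeg cells with PE and siNeg cells without it. Of 18173 genes tested, 8922 were called (49.1%), of which 4512 were higher (24.8%) and 4410 lower (24.3%) with PE, by edgeR's quasi-likelihood test at a Benjamini-Hochberg adjusted p under 0.05. The median called gene moved by 0.36 on the log2 scale, with quartiles of 0.22 and 0.64. With a 1.5-fold minimum, 1074 genes rose (5.91%) and 1449 fell (7.97%). With a 2-fold minimum 436 rose and 551 fell, with a 4-fold minimum 78 rose and 77 fell, and with an 8-fold minimum 15 rose and 17 fell. Falls were in excess at the 1.5-fold and 2-fold minimum, which are cuts on the estimated fold. A test against a minimum fold of 1.5 (glmTreat) gave a near-even 567 higher and 577 lower. A fit of genes of at least 10 CPM alone gave 463 rises and 484 falls by 1.5-fold. The even numbers at 4-fold rested on both PE libraries: without PE library 1 there were 94 rises and 120 falls, and without PE library 2 there were 79 and 122. A group left with 1 library is assumed in such fits to vary like the others. The near-even split of all calls depends on the scaling. With library totals alone, without TMM factors, rises made up 33.2% of the calls rather than 50.6%, and the median log2 fold change of all genes was -0.12 rather than -0.02, a median shift of -0.10 for the log2 fold changes of siNeg with PE over siNeg. The same scaling moved the AdGFP fold changes by a median of -0.14 and the interactions of siKlf2 with PE by -0.07.

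The balance between rises and falls turned over with the level of the gene. Genes were put into 5 classes by their mean CPM over all 8 libraries of the knockdown table. Among 5419 genes under 1 CPM, 285 were higher by a fold of at least 1.5 (5.26% of the class) and 507 lower (9.36%). Without siNeg replicate 2 these numbers were 176 and 328, again with more falls than rises. Among 3728 genes of 1 to 10 CPM, 259 were higher (6.95%) and 516 lower (13.8%). In both of these classes about 1 in 3 of the calls was a rise, 36% and 33.4%. The 7040 genes of 10 to 100 CPM were near balance, with 345 higher (4.9%) and 363 lower (5.16%). In a fit of genes of at least 10 CPM alone, this class split into 297 higher and 410 lower. From 100 CPM the balance was the other way round from that under 10 CPM. Of 1903 genes of 100 to 1000 CPM, 163 were higher (8.57%) and 62 lower (3.26%), and of 83 genes of 1000 CPM or more, 22 were higher (26.5%) and 1 was lower (1.2%).

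**Figure D1:**
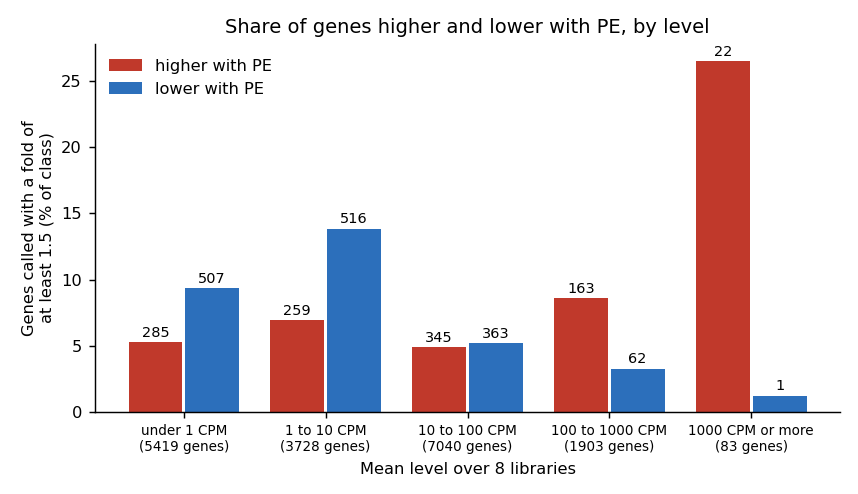
Share of the tested genes in each class of mean level (x axis, CPM over 8 libraries) that were called higher (red, left bar) or lower (blue, right bar) in siNeg with PE than in siNeg, with a fold of at least 1.5; numbers above the bars are genes. In both classes under 10 CPM there are fewer rises than falls, 285 and 507 in the lowest class and 259 and 516 in the next (176 and 328 in the lowest class without siNeg replicate 2), and in both classes from 100 CPM there are more rises than falls.

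The same turn was present in the fold changes of all tested genes, called or not. The median log2 fold change was -0.12 under 1 CPM, -0.11 at 1 to 10 CPM, 0.02 at 10 to 100 CPM, 0.10 at 100 to 1000 CPM and 0.18 at 1000 CPM or more. With library totals alone these medians were -0.23, -0.22, -0.084, -0.0016 and 0.075, so the upward order with level was kept while the level at which the sign turned moved up. Under that scaling and with the same 1.5-fold minimum, genes of 10 to 100 CPM split into 234 rises and 512 falls, and those of 100 to 1000 CPM into 117 rises and 95 falls. The upper and lower parts of the distribution differed more than the middle. The 90th percentile of the log2 fold change was 0.46 at 1 to 10 CPM and 1.16 at 1000 CPM or more, whereas the 10th percentile was -0.71 in the first of these classes and -0.13 in the second.

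A gene's mean over these libraries contains its own response to PE. Levels were therefore also taken from the overexpression table, whose 12 libraries are separate from those of the comparison but of which 6 were treated with PE, as an alternative added after the data were seen. Classed that way, 243 genes rose and 502 fell by 1.5-fold or more at 1 to 10 CPM, 151 were higher and 81 lower at 100 to 1000 CPM, and 16 were higher and 5 lower among the 74 genes of 1000 CPM or more. The median log2 fold change was -0.12 in the first of these 3 classes, 0.07 in the second and 0.18 in the third. Levels were then taken from the 6 libraries of that table without PE, also after the data were seen, a choice that tends to place genes that are higher with PE in lower classes. On those levels 251 genes rose and 513 fell at 1 to 10 CPM, 123 were higher and 85 lower at 100 to 1000 CPM, while of the 67 genes of 1000 CPM or more 10 rose and 4 fell. The medians were -0.11, 0.06 and 0.072 in that order of classes. The direction of the imbalance was the same in these 3 classes on all 3 sets of levels. The excess of rises from 100 CPM shrank with each change, so its size depends on which libraries set the level. Under 1 CPM the excess of falls shrank too, to 292 rises and 435 falls and then to 334 and 401. At 10 to 100 CPM the near balance gave way to 372 rises and 426 falls, and then to 356 and 446.

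**Figure D2:**
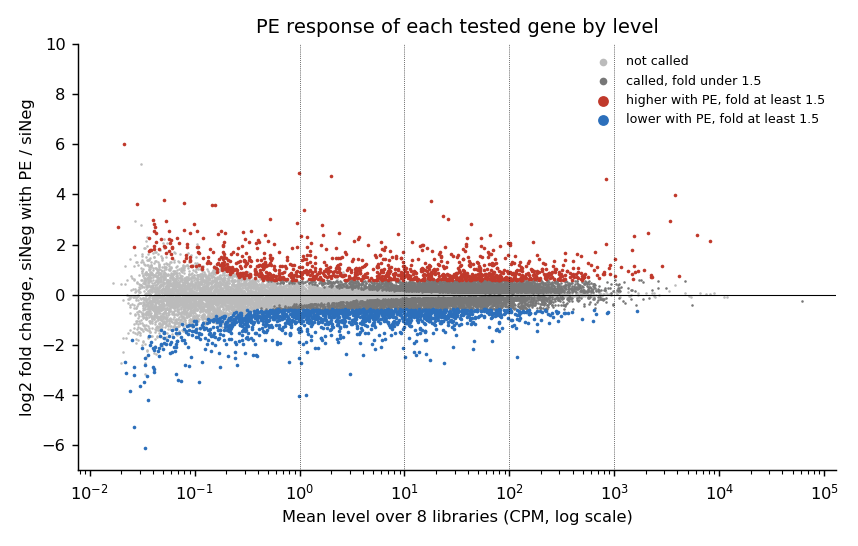
Log2 fold change of siNeg with PE over siNeg (y axis) against mean level over 8 libraries (x axis, CPM, log scale) for the 18173 tested genes, with dotted lines at the class limits of 1, 10, 100 and 1000 CPM. Red points are the 1074 genes called higher and blue points the 1449 called lower with a fold of at least 1.5; dark grey points were called with a smaller fold and light grey points were not called. Uncalled genes spread widely under 1 CPM, while small changes are called above 10 CPM.

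How small a change could be called depended strongly on level. The median standard error of the log2 fold change was 0.38 under 1 CPM, 0.10 at 1 to 10 CPM, 0.043 at 10 to 100 CPM, 0.034 at 100 to 1000 CPM and 0.038 at 1000 CPM or more. Accordingly 16% of the genes under 1 CPM were called with any fold, against 51.1%, 66.7%, 73.2% and 67.5% in the 4 higher classes. The smallest called change was 0.37 on the log2 scale under 1 CPM and 0.078 at 10 to 100 CPM. Of the 4698 genes called at 10 to 100 CPM, 3990 changed by less than 1.5-fold (84.9%), whereas under 1 CPM only 77 of 869 did (8.86%). The large folds lay mostly at the bottom of the range: 101 of the 155 genes with a fold of at least 4 had a mean under 1 CPM (65.2%). Of the other 54, 33 were higher and 21 lower with PE. At 1000 CPM or more, 6 genes were higher by a fold of at least 4 and 0 were lower.

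The response was set against the difference between replicate libraries. At 10 to 100 CPM the median absolute log2 difference between PE and unstimulated cells was 0.19, while the 2 libraries with PE differed from each other by a median of 0.055 and the 2 without PE by 0.034. At 1000 CPM or more the response was 0.28, against 0.062 between the PE libraries and 0.028 between the unstimulated libraries. Under 1 CPM the response was 0.43, against replicate differences of 0.38 with PE and 0.33 without PE. This was the class with the fewest calls for its size. The response is a fitted difference between groups of 2 libraries, while a replicate difference is between 2 single libraries, which vary more than group means. The values are thus not like for like, and their nearness under 1 CPM does not make the response equal to the replicate variation. In every class the libraries with PE differed more from each other than those without PE.

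**Figure D3:**
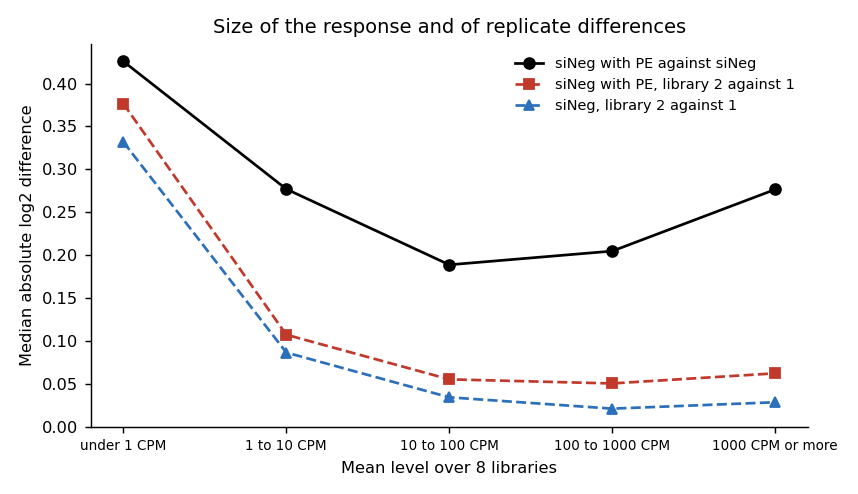
Median absolute log2 difference (y axis) in each class of mean level (x axis) between the means of siNeg with PE and siNeg (black), between the 2 siNeg libraries with PE (red) and between the 2 siNeg libraries without PE (blue). The response is 0.43 against 0.38 and 0.33 under 1 CPM, and 0.19 against 0.055 and 0.034 at 10 to 100 CPM. Black points are fitted differences between groups of 2 libraries and the others compare single libraries, so they are not like for like. Under 1 CPM the replicate differences leave out genes at 0 in a library, 37 with PE and 32 without PE.

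The size of the response was compared between the PE libraries by medians over called genes. The genes higher by a fold of at least 1.5, where no library was at 0 (1069 genes), lay above the unstimulated libraries by a median of 0.89 in PE library 1 and 0.91 in PE library 2. For the 1440 lower genes the medians were -0.87 in PE library 1 and -0.88 in PE library 2. PE library 2 lay farther from the unstimulated libraries for 53.5% of the higher genes and 52.5% of the lower genes. For genes not called it did so for 50.1%. At 1000 CPM or more the libraries were less alike: PE library 2 lay farther for 63.6% of 22 higher genes and for 66.7% of 27 genes not called.

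Seen as summed CPM rather than as counts of genes, most of the gain and most of the loss came from abundant genes. CPM are relative levels, and the amount of RNA per cell was not measured. Summed over all 8741 genes with a higher mean in PE cells, the gain was 127917 CPM, and summed over the 9432 with a lower mean, the change was -62232 CPM. These sums are on the TMM scale, where gains and losses need not balance, and were not repeated with library totals alone. Genes of 100 CPM or more supplied most of the gain, with 44.5% from the class of 100 to 1000 CPM and 34.2% from the 83 genes of 1000 CPM or more. The same 2 classes supplied 37% and 24.3% of the loss. They also held most of the summed CPM to begin with, 389646 and 222739 CPM in siNeg library 1, against 261347 CPM at 10 to 100 CPM. Genes under 10 CPM held 1023 of the 1449 falls of at least 1.5-fold, but 0.536% of the loss came from genes under 1 CPM and 4.43% from genes of 1 to 10 CPM. The gain was concentrated: 10 genes supplied 20.1% of it, 100 genes 44.7%, and 150 genes reached 50%. On the side of the loss, 965 genes were needed to reach 50%, and a single gene held 15%. That gene had the highest mean level of all. It lay at 48211 and 54068 CPM with PE, against 61059 and 59834 CPM without PE, or -0.24 on the log2 scale (SE 0.057; adjusted p = 0.00435 in edgeR). Its groups did not overlap, but its 2 libraries with PE differed by about as much as the nearer PE and unstimulated libraries did.

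No gene met a strict rule for being switched on or off, which a single count in the silent group is enough to fail at these totals. The rule does not cover genes that rose from, or fell to, a trace level. The number with 0 counts in both unstimulated libraries and at least 10 counts in both PE libraries was 0, and so was the number with 0 counts in both PE libraries and at least 10 in both unstimulated ones. Among the 8400 genes with 0 counts in both unstimulated libraries, the highest level reached in any PE library was 0.0674 CPM. Among the 8348 at 0 in both PE libraries, the highest in an unstimulated library was 0.0785 CPM. Each gene with at least 10 counts in both libraries of one group thus had a count in at least 1 library of the other.

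Of the genes called whose higher group averaged 5 CPM or more and whose groups did not overlap (3893 higher, 3269 lower), the 2 with the largest rise and the 2 with the largest fall are described in each library. They were chosen for the size of their change in these libraries, so that size is partly built into the choice, while the AdGFP libraries had no part in it.

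The largest rise was that of ENSRNOG00000008141. It lay at 723 and 858 CPM in the siNeg libraries with PE, against 32.1 and 32.2 CPM in those without PE. The unstimulated libraries were almost equal and far below both PE libraries. The ratio of means was 24.6, and the response was 4.62 on the log2 scale (SE 0.077; adjusted p = 1.25e-11 in edgeR). In AdGFP cells the same ID lay at 608, 573 and 620 CPM with PE, against 16.1, 8.1 and 14.1 CPM without PE, or 5.56 on the log2 scale (SE 0.17; adjusted p = 4.97e-14 in edgeR).

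ENSRNOG00000008176 had the second largest rise and reached a higher level. It lay at 2754 and 3015 CPM with PE, against 183 and 182 CPM without PE, a ratio of means of 15.8 and 3.98 on the log2 scale (SE 0.047; adjusted p = 2.21e-12 in edgeR). Its mean level over all 8 libraries of the knockdown table, siKlf2 included, ranked 16 among all tested genes. In siNeg cells it alone supplied 2.11% of the summed gain. In AdGFP cells it lay at 3820, 3669 and 3635 CPM with PE, against 97.5, 81.5 and 106 CPM without PE. The next rise in order had a log2 fold change of 3.72, with means of 23 CPM with PE and 1.74 CPM without PE, so a large rise was not limited to abundant genes.

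The largest fall was that of ENSRNOG00000003680, a gene of low level. It lay at 0.914 and 0.405 CPM with PE, from 217 and 85 counts, against 5.67 and 6.39 CPM without PE, from 1265 and 1301 counts. The first library with PE had a clearly higher level than the other, and both were far below the unstimulated ones. The response was -3.17 on the log2 scale (SE 0.24; adjusted p = 7.9e-07 in edgeR). It ranged from -3.89 without PE library 1 to -2.72 without PE library 2, and without PE library 2 it was smaller than the second largest fall, which was then -2.79. In AdGFP cells it lay at 1.02, 1.17 and 1.12 CPM with PE, against 9.89, 16.3 and 11.2 CPM without PE.

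ENSRNOG00000025868 had the second largest fall, to 7.82 and 8.62 CPM with PE, against 54.9 and 53.1 CPM without PE. Its replicates lay close together in both groups. The response was -2.72 on the log2 scale (SE 0.064; adjusted p = 1.13e-10 in edgeR). In AdGFP cells it lay at 16.9, 21.4 and 17 CPM with PE, against 66.5, 73.9 and 62.9 CPM without PE, or -1.88 on the log2 scale (SE 0.12; adjusted p = 6.06e-10 in edgeR). The next fall in order had a log2 fold change of -2.60.

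**Figure D4:**
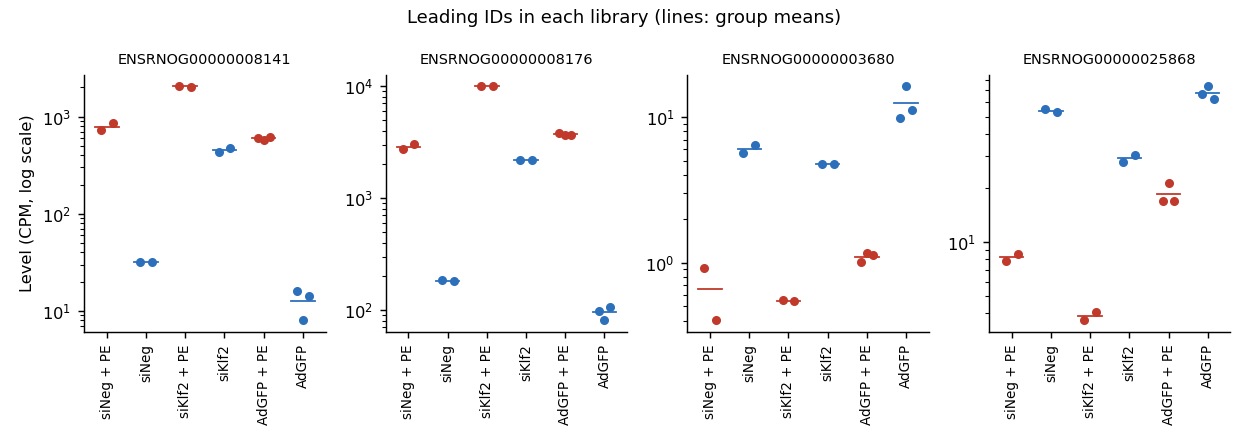
Level of the 4 leading IDs in each library (y axes, CPM, log scale) for siNeg, siKlf2 and AdGFP cells with PE (red) and without PE (blue); points are libraries and lines are group means. ENSRNOG00000008141 and ENSRNOG00000008176 rise with PE, and ENSRNOG00000003680 and ENSRNOG00000025868 fall with PE, in all 3 kinds of cells, and no PE library overlaps its unstimulated group. In siNeg cells the direction and the lack of overlap were part of the rule that chose these IDs.

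Cells with Klf2 knocked down gave a second reading of the PE response, in libraries separate from those of siNeg. With all 8 libraries, no difference in the PE response was called for either leading fall. ENSRNOG00000003680 had a log2 fold change of -3.12 in siKlf2 cells, and the difference from siNeg was 0.05 (SE 0.36, edgeR adjusted p = 0.952 for the interaction). That difference depended on both siNeg libraries with PE. It was 0.77 without PE library 1 and -0.40 without PE library 2, in fits whose siNeg group with PE held 1 library. Over all omissions of 1 library it ranged from -0.40 to 0.77. ENSRNOG00000025868 had a log2 fold change of -2.92 in siKlf2 cells, a difference of -0.20 from siNeg (SE 0.092, edgeR adjusted p = 0.19 for the interaction). Neither p shows that the responses were the same. As ratios, both leading rises were smaller in siKlf2 cells, with log2 fold changes of 2.18 for ENSRNOG00000008141 and 2.20 for ENSRNOG00000008176. Their interactions were -2.44 (SE 0.095, edgeR adjusted p = 2.93e-07) and -1.78 (SE 0.059, edgeR adjusted p = 1.61e-07). ENSRNOG00000008141 lay at 2058 and 2040 CPM in siKlf2 cells with PE, against 434 and 471 CPM in siKlf2 cells without PE, and ENSRNOG00000008176 at 9929 and 9974 CPM with PE, against 2171 and 2163 CPM without PE. In both states each lay above its level in siNeg cells, and the difference with PE in CPM was larger in siKlf2 than in siNeg cells, 1596 against 758 CPM for the first ID and 7785 against 2702 CPM for the second. An interaction was called for 14.4% of all tested genes.

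How often the siNeg response recurred in AdGFP cells depended on level. These libraries form a separate table, normalized and fitted on its own, so values stand side by side without a test between tables. Of 345 genes higher by a fold of at least 1.5 in siNeg at 10 to 100 CPM, 340 had the same sign in AdGFP (98.6%) and 306 were called higher there (88.7%), where 18.3% of all tested genes were called higher. Of 363 lower genes of that class, 358 had the same sign and 333 were called lower (91.7%), where 16.3% of all tested genes were called lower. At 1000 CPM or more all 22 higher genes were called higher in AdGFP too. At 1 to 10 CPM the shares called in the same direction were 52.5% of 259 higher and 58.3% of 516 lower genes. Under 1 CPM they were 15.9% of 195 higher and 21.6% of 398 lower genes tested in both tables, although 76.4% and 83.4% had the same sign. The shares over all tested genes are not those of a class, since calling depends on level. With the 1.5-fold minimum, 159 of 3198 genes under 1 CPM were higher in AdGFP and 195 lower. At 10 to 100 CPM, 423 of 7039 were higher and 396 lower. The Spearman correlation of the log2 fold changes across genes, which are not independent replicates, was 0.38 under 1 CPM, 0.66, 0.77 and 0.80 in the next 3 classes, and 0.93 over the 83 genes of 1000 CPM or more. Totals in the AdGFP table were lower, 33155447 to 60994028 counts in these 6 libraries, and its biological coefficient of variation was 0.132, against 0.049 in the knockdown table. The AdGFP libraries without PE also held fewer detected genes, 16238 to 16812 with a count against 17059 to 17438 with PE. Of counts from 1 to 20, 75.8% to 82.2% were even in the 6 AdGFP libraries, against 59.8% to 66.6% in the 4 siNeg libraries. The part of depth, spread and such even counts in the lower recurrence of weakly expressed genes was not tested.

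**Figure D5:**
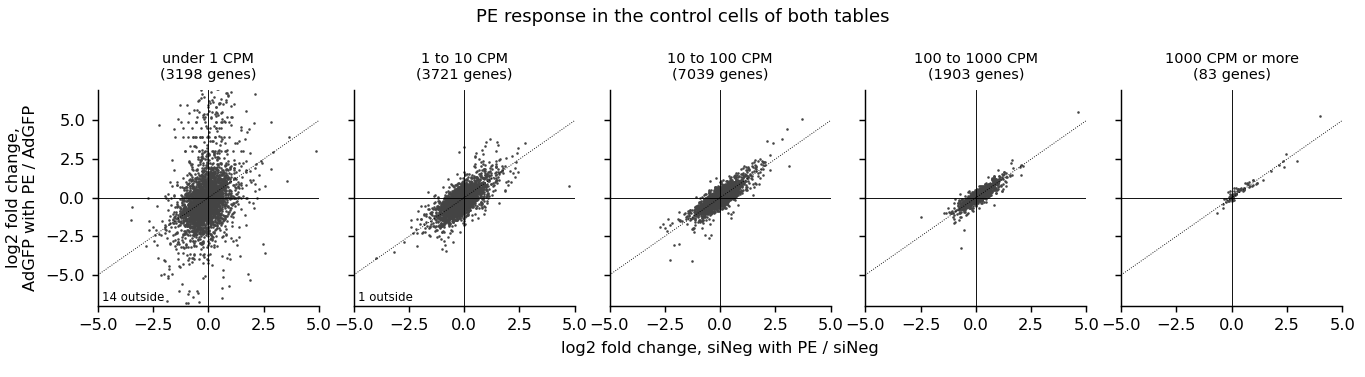
Log2 fold change with PE in AdGFP cells (y axis) against that in siNeg cells (x axis), for genes tested in both tables, in 5 classes of mean level; each point is a gene, the dotted line marks equal values, and genes outside the axes are counted in the corner. Points form a wide cloud under 1 CPM, with a Spearman correlation of 0.38, and lie along the line at 1000 CPM or more, with 0.93.

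The turn with level was also present in the other cells. With the 1.5-fold minimum, 289 genes of 1 to 10 CPM were higher and 460 lower with PE in siKlf2 cells, as were 179 and 77 of 100 to 1000 CPM, where 5.88% of all tested genes rose and 7.85% fell. In AdGFP cells the numbers were 228 higher and 568 lower of 1 to 10 CPM, and 178 higher and 65 lower of 100 to 1000 CPM, where 6.35% of all tested genes rose and 7.6% fell. At 1000 CPM or more, 30 were higher and 1 lower in siKlf2, and 29 higher and 2 lower in AdGFP. Of all 1074 genes higher in siNeg by this fold, 854 were called higher in siKlf2 and 6 lower, and of the 1449 lower genes 1066 were called lower and 5 higher, where 24.4% of all tested genes were called higher and 23.7% lower. The siNeg and siKlf2 contrasts have no library in common, but they share a table, its filter, the level classes and 1 fit. Each gene's estimated spread is thus the same in both, so their calls are not independent.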

How the data were processed

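Per the labels' protocols, the NEBNext Ultra kit was used on 400 ng of RNA. Trim Galore, STAR, featureCounts and the build mRatBN7.2 are named in the submitters' processing notes, and settings and versions are not given in the sources used here. The values the authors deposited are raw, whole-number counts for each Ensembl ID. Of the counts from 1 to 20, the even ones were 59.8% and 66.6% in the siNeg libraries with PE and 63.2% and 62.4% in those without PE. Some fragments may thus have entered through each mate, and counting precision is lower than the totals alone would give.

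All 8 libraries of the knockdown table entered 1 fit in edgeR 4.0.16 (R 4.3.3) with filterByExpr (minimum count 10, minimum total 15), TMM factors and a coefficient per group. The quasi-likelihood test was two-sided, with Benjamini-Hochberg adjustment over all 18173 genes tested. The biological coefficient of variation was 0.049. The AdGFP table was fitted separately over its 12 libraries and 16153 genes. Alternatives included DESeq2 1.42.0 and limma voom 3.58.1. Python 3.11.15 and matplotlib 3.10.9 made summaries and figures. Libraries with the same number did not deviate together from their group means (correlations -0.0432 to 0.0403).

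The groups, lists and classes were chosen with earlier results of these data known. Named genes were the 2 largest rises and 2 largest falls among called genes with at least 5 CPM in the higher group and no overlap. This was the rule for IDs without symbols. For want of symbols, the 39 gene lists (cell type markers included) and the promoter motifs were not run. The CUT&Tag peak list was not used.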

Additional observations from a re-analysis of the deposited data

Results flagged for a closer look

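The response to PE of 2 IDs differed between siKlf2 and siNeg cells by the interaction test. For ENSRNOG00000008141 the log2 response in siKlf2 minus that in siNeg was -2.44 (SE 0.095, edgeR adjusted p = 2.93e-07), with both unstimulated siKlf2 libraries above both unstimulated siNeg libraries. For ENSRNOG00000008176 it was -1.78 (SE 0.059, edgeR adjusted p = 1.61e-07). Both IDs were chosen for their large response in siNeg. With PE they lay at 2058 and 2040 CPM and at 9929 and 9974 CPM in siKlf2 cells, above their levels in siNeg cells with PE, and their log2 responses in AdGFP cells, 5.56 and 5.29, were larger than in siNeg. With groups of 2 libraries, single libraries that stand apart could not be tested for.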

How the results depend on the processing

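With 2 libraries a side the precision of every value is limited, and under 1 CPM depth limits it further. A test against a minimum fold of 1.5 (glmTreat) called 1144 genes, 567 higher and 577 lower, of which 47 fell by a fold of at least 4. Genes of at least 10 CPM alone gave 463 higher and 484 lower by 1.5-fold, and 18 and 10 by 4-fold. That fit tested 9026 genes and had its own TMM factors. At 10 to 100 CPM it gave 297 rises and 410 falls, against 345 and 363 as reported. The median log2 fold change of that class was -0.019 rather than 0.019. With library totals alone, 95 genes of 100 to 1000 CPM were lower by 1.5-fold, and the medians of the 3 upper classes were -0.084, -0.0016 and 0.075. With levels from the overexpression table, chosen after seeing the data, 5 genes of 1000 CPM or more were lower. From its unstimulated libraries alone, also chosen then, 10 were higher and 4 lower, with a median of 0.072. Leaving out 1 library, which leaves a lone library assumed to vary like the other groups, gave 81 to 122 falls of at least 4-fold (120 without PE library 1 and 122 without PE library 2), and under 1 CPM 176 to 269 rises and 328 to 438 falls of at least 1.5-fold, the lowest of each without siNeg replicate 2. The median at 1000 CPM or more was then 0.16 to 0.25. The interaction of ENSRNOG00000003680 moved to 0.77 without PE library 1 and to -0.40 without PE library 2. Each of these fits left a lone library in that group. All other counts stayed within 1.5 times, and the 4 leading IDs kept their calls and directions in siNeg under each alternative run. A replicate block called 8932 genes, 8765 of them among the 8922. It is a hint only, since the numbers did not pair the libraries. The gene lists could not be run without symbols.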
